A study of Mus musculus with 6 samples.

Results

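Aminoacyl-tRNA synthetases join each amino acid to its tRNA, and 41 genes of this family and its scaffold were followed in murine T-cell acute lymphoblastic leukaemia, or T-ALL, with and without Phf6. Members were the rows of the deposited table whose gene symbol follows the synthetase naming pattern (Aars, Aars2, Cars and so on), plus Eprs, Farsa, Farsb, Tarsl2, Aimp1, Aimp2 and Eef1e1. They made up 41 of the 23306 genes in the table: 21 encode cytosolic enzymes or their subunits, 17 encode mitochondrial enzymes (symbols ending in 2) and 3 encode scaffold proteins. All 41 passed the filter on low values, and the lowest number of reads for any of them in any library was 267.

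PolyA RNA was sequenced from isogenic T-ALL tumours on the C57BL/6 background that were harvested from bone marrow. The groups were Phf6 WT (3 samples) and Phf6 KO (3 samples). Phf6 encodes a nuclear PHD finger protein and was deleted by a Cre recombinase that tamoxifen induces, injected into the peritoneum, with corn oil as the vehicle. The labels do not state which samples were given tamoxifen and which corn oil. Where only the knockout received tamoxifen, loss of Phf6 and exposure to the drug cannot be told apart. Nor do the labels give the driver of Cre or the deleted exons, or say if replicates were different animals, so p-values measure only the spread between these samples.

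Every tRNA that enters a ribosome has first been charged by one of these enzymes. Cytosolic and mitochondrial translation mostly use separate enzymes, all encoded in the nucleus, while Gars and Kars each supply both compartments from a single gene. Several cytosolic enzymes are held in the multisynthetase complex by the proteins encoded by Aimp1, Aimp2 and Eef1e1. Uncharged tRNA activates the kinase GCN2, which raises translation of the transcription factor ATF4, and many cytosolic synthetase genes are themselves targets of ATF4.

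Reads assigned to genes numbered between 46067511 and 54953145 per library. The targeted gene Phf6 had normalised read counts of 5508, 4240 and 5075 in Phf6 WT 1 to 3 and 1781, 2337 and 1755 in Phf6 KO 1 to 3, a ratio of 0.396 between the means (limma: log2 fold change -1.34, SE 0.13, adjusted p = 0.00185). Counts cover the whole gene, so reads left in the knockout may come from cells that kept Phf6 or from a shortened transcript, which these counts cannot tell apart. T-lineage markers were abundant in every library. Their summed level was 5985 to 6641 CPM (reads scaled to the library total) in Phf6 WT and 5245 to 6083 CPM in Phf6 KO. In limma, at an adjusted p under 0.05, 3 of the 14 tested fell, where 3.43% of all genes fell and 5.32% rose. Their log2 fold changes were negative for 10 and positive for 4 (median of -0.25). Markers of neutrophils, macrophages and B cells had higher sums in every knockout library than in any wild-type library. The 18 neutrophil markers summed to 125.4 to 466.4 CPM in Phf6 WT and 1089 to 1385 CPM in Phf6 KO (9 rose, against 5.32% of all genes). The 14 macrophage and monocyte markers summed to 58.0 to 122.4 and 190.0 to 314.4 CPM (6 rose, and 2 had negative log2 fold changes). The 11 B-cell markers summed to 5.5 to 8.0 and 14.2 to 23.9 CPM (8 of 9 tested rose). Erythroid markers summed to 6.4 to 12.0 and 8.2 to 19.3 CPM, with overlapping groups, and limma called none of the 9 tested (1 had an unadjusted p under 0.05). Stromal and endothelial markers summed to 489.9 to 581.3 and 666.0 to 857.8 CPM, without overlap, although 1 of the 4 tested fell and none was called higher by limma. No marker in the table was at 0 in every library.

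Promoter sequences were searched for 2 motifs linked to regulators of this family, because many of its members were lower together in the knockout. RefSeq windows of 250 bases before to 50 bases after the start (GRCm38.p6) were matched to 31 of the 41 members, Mars through a synonym and the other 30 by symbol, and Aars2 and Aimp1 each had more than 1 window. The E-box CACGTG, which MYC and related factors bind, occurred in the windows of 5 matched members, Aars, Farsb, Iars, Tars and Ears2 (16.1%), and in 7.15% of all 32851 windows. The core of the composite C/EBP-ATF site, TGATGNAA on either strand, occurred in 5 matched members, Aars, Gars, Iars, Tars and Yars (16.1%), and in 3.97% of all windows. All 5 with the C/EBP-ATF core encode cytosolic enzymes, of which 14 of 21 genes were matched. None of the 14 matched mitochondrial enzyme genes had it, which is near the background of 3.97%. Of the genes with a motif, Farsb, Tars and Yars were lower in the knockout at a limma adjusted p under 0.05. Aars, Gars, Iars and Ears2 were not. Cars, Lars and Vars, which were also lower by that rule, had no window. The motifs did not overlap each other in the members' windows, and a match is a description of letters, not of a bound site. The matches that lie before the start are shown with 30 bases on each side, or up to the start, read 5′ to 3′ on the gene's strand with the motif in capitals.
Farsb E-box, bases -39 to -34 from the start, chr1:78488901-78488966, minus strand: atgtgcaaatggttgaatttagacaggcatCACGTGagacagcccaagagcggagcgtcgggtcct
Iars E-box, bases -69 to -64 from the start, chr13:49682031-49682096, plus strand: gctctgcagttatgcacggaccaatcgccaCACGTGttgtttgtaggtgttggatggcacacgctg
Aars E-box, bases -146 to -141 from the start, chr8:111033666-111033731, plus strand: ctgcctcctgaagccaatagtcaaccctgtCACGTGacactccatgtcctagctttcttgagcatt
Aars C/EBP-ATF core, bases -112 to -105 from the start, chr8:111033700-111033767, plus strand: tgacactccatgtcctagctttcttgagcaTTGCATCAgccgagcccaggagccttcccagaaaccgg
Tars C/EBP-ATF core, bases -15 to -8 from the start, chr15:11399659-11399703, minus strand: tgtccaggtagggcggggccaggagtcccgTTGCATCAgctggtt
Gars C/EBP-ATF core, bases -30 to -23 from the start, chr6:55037941-55038000, plus strand: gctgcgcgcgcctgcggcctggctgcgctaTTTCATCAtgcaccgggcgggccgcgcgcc

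The design compares isogenic leukaemia cells of the 2 genotypes, and here Phf6 KO was compared with Phf6 WT for each enzyme class. Of the 21 cytosolic enzyme genes 9 fell and none rose (limma on log2(value + 2), Benjamini-Hochberg adjustment over 17993 genes, threshold 0.05), with changes of the mean between -34.5% (Farsb) and -19.2% (Vars). The median log2 fold change of the 21 was -0.30. Over all genes tested, 3.43% fell and 5.32% rose, with a median of -0.01. Among the 10033 genes at least as abundant as the lowest member, 5.40% fell and the median was -0.06. Without adjustment, 18 of the 21 had a p under 0.05, all of them lower, against 12.5% of all genes. edgeR called 7 of the 21 lower (2.55% of all genes) and DESeq2 12 (5.03%), and neither called any higher. Samples were bulk tumour, so fewer cells of a type and less RNA per cell cannot be told apart, and whether the higher neutrophil, macrophage and B-cell markers or the lower T-lineage sum had a part in these falls was not tested.

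The number of calls rested on small differences, and it changed with the library left out and with the scaling. Of the 21 cytosolic genes, 1 was called (Farsb) without Phf6 WT 1, without Phf6 WT 3 and without Phf6 KO 3, while 3 were called without Phf6 KO 1, 5 without Phf6 KO 2 and 9 without Phf6 WT 2. Falls over all genes numbered 91, 172, 73, 396, 361 and 786 in these settings, in the same order. With library totals as the only scaling 4 were called (Farsb, Mars, Sars and Yars), and over all genes 300 fell and 1213 rose, against 618 and 957 as deposited. The median log2 fold change of the 21 ranged from -0.33 to -0.21 over these and the other alternatives.

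Farsb, the beta subunit of phenylalanyl-tRNA synthetase (chromosome 1, 78417975 to 78488897, GRCm38), had the largest fall among the members. Its normalised read counts were 5118, 4562 and 4919 in Phf6 WT 1 to 3 and 3209, 3419 and 2940 in Phf6 KO 1 to 3. All knockout values lay below all wild-type values, and the mean went from 4866 ± 282 to 3189 ± 240 (SD, n = 3 each), or -0.61 on the log2 scale (SE 0.09, limma adjusted p = 0.00475). It was called in all 17 alternatives, with log2 fold changes of -0.71 to -0.53. The alpha subunit gene Farsa, whose product forms the same enzyme, had 5994, 6353 and 5710 in Phf6 WT and 4844, 5180 and 5101 in Phf6 KO (log2 fold change -0.25 ± 0.08, limma adjusted p = 0.0741). The log2 ratio of Farsb to Farsa within a library was -0.23, -0.48 and -0.21 in Phf6 WT 1 to 3 and -0.59, -0.60 and -0.80 in Phf6 KO 1 to 3, so the transcripts of the subunits stood further apart in every knockout library. Of the annotated exon bases of Farsb 9.47% are shared with Sgpp2 on the opposite strand, and how strand was handled in counting is not given in the sources used here.

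Among enzymes that work outside the multisynthetase complex, Yars, Sars, Tars, Cars and Vars fell as well. Yars, the tyrosine enzyme, had 3379, 3621 and 3459 normalised reads in Phf6 WT 1 to 3 and 2611, 2757 and 2444 in Phf6 KO 1 to 3 (log2 fold change -0.42 ± 0.08 SE, limma adjusted p = 0.0154). Sars, for serine, went from 7271, 7295 and 7035 to 5612, 5861 and 5456 (-0.35 ± 0.07, limma adjusted p = 0.0201). Tars, for threonine, had 6117, 6130 and 6254 in wild type and 5053, 4780 and 4719 in knockout (-0.35 ± 0.07, limma adjusted p = 0.0210). In each of these genes the lowest wild-type library stood above the highest knockout library. The paralog Tarsl2, a second cytosolic threonine enzyme, had 814.8, 712.0 and 758.3 reads in Phf6 WT and 781.3, 754.0 and 772.3 in Phf6 KO, with overlapping groups (0.02 ± 0.10, limma adjusted p = 0.942). Cars, for cysteine, had 2500, 2534 and 2409 in wild type and 2004, 2070 and 1935 in knockout (-0.31 ± 0.08, limma adjusted p = 0.0424). Vars, for valine and the most abundant member per length, had 25986, 24925 and 27661 in wild type and 22682, 20411 and 20395 in knockout (-0.31 ± 0.08, limma adjusted p = 0.0485). The groups did not overlap for Cars or Vars either, although edgeR did not call Vars (adjusted p = 0.0666). Of the 13 cytosolic enzyme genes outside the complex 6 fell, Farsb included, against 3.43% of all genes.

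In the multisynthetase complex 3 of 8 enzyme genes fell, and so did 1 of the 3 scaffold genes, against 3.43% of all genes. Mars, for methionine, had 5780, 4953 and 5602 normalised reads in Phf6 WT 1 to 3 and 3874, 4321 and 3987 in Phf6 KO 1 to 3 (log2 fold change -0.42 ± 0.09 SE, limma adjusted p = 0.0203). Lars, for leucine, had 5900, 5173 and 5466 in wild type and 4316, 4289 and 4152 in knockout (-0.37 ± 0.08, limma adjusted p = 0.0216). Eprs, which charges both glutamate and proline tRNAs, had 14910, 12737 and 13444 in wild type and 10672, 11508 and 10616 in knockout (-0.32 ± 0.09, limma adjusted p = 0.0458), and edgeR did not call it (adjusted p = 0.0596). None of these 3 genes had overlapping groups. Aimp2, a scaffold gene, had 1318, 1310 and 1291 in wild type and 1020, 1059 and 942.7 in knockout (-0.38 ± 0.09, limma adjusted p = 0.0361). Of its exon bases 29.4% are shared with Eif2ak1 on the opposite strand. The other scaffold genes did not pass: Eef1e1 had 2293, 2432 and 2240 in wild type and 2063, 2227 and 1850 in knockout (-0.18 ± 0.09, adjusted p = 0.255), and Aimp1 4604, 5237 and 4853 against 4906, 4406 and 4376 (-0.10 ± 0.09, adjusted p = 0.501). The groups overlapped for Aimp1 and not for Eef1e1. Over the 11 genes of the complex the median log2 fold change was -0.30, the same to 2 decimals as over the 13 cytosolic genes outside it.

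**Figure D1:**
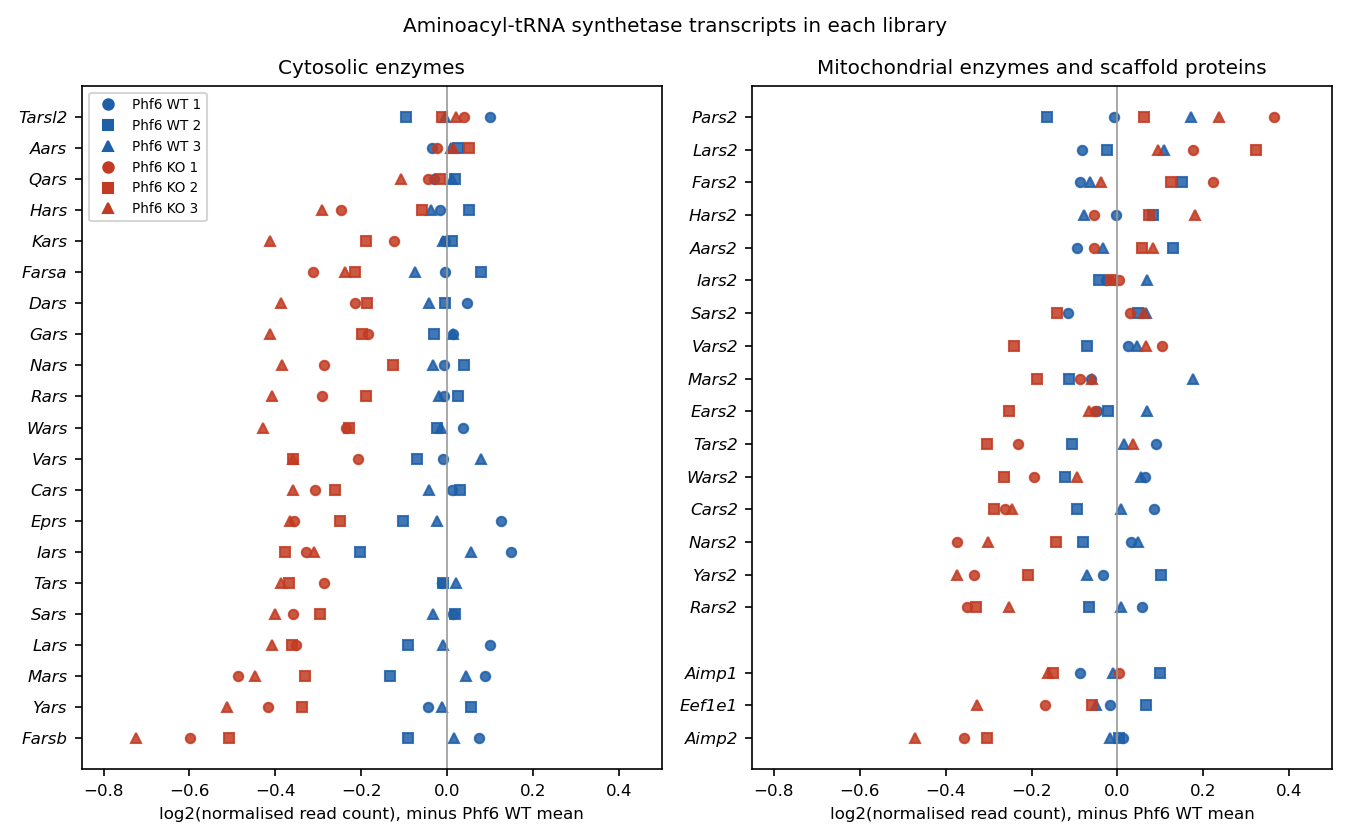
Each row is 1 gene, and the x axis gives log2 of the normalised read count minus the mean of the 3 Phf6 WT libraries, with Phf6 WT in blue and Phf6 KO in red, and shapes that tell libraries 1, 2 and 3 apart. Red lies wholly to the left of blue for 18 of 21 cytosolic enzyme genes (left panel), 5 of the 16 mitochondrial enzyme genes shown and 2 of 3 scaffold genes (right panel).

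The remaining 12 cytosolic genes did not pass the test, and they fall into separate sets by their values. Rars, Wars, Iars, Farsa, Dars, Gars, Nars, Kars and Hars had log2 fold changes of -0.34 (Iars) to -0.20 (Hars) and limma adjusted p of 0.0524 (Rars) to 0.186 (Hars). In all 9 the knockout values lay below the wild-type values without overlap, which brought the number of such genes to 18 of 21, where all genes tested gave 16.2% and genes at least as abundant as the lowest member 22.9%. No cytosolic gene had its knockout values wholly above, against 15.0% of all genes. The 3 others had overlapping groups. Qars, the glutamine enzyme, had 12115, 12533 and 12464 normalised reads in Phf6 WT and 11991, 12223 and 11485 in Phf6 KO (-0.06 ± 0.07). Aars, the alanine enzyme, had 6422, 6695 and 6626 in wild type and 6478, 6818 and 6646 in knockout (0.01 ± 0.07, limma adjusted p = 0.924), values that differed by less than the spread between libraries. Of its annotated exon bases 14.3% are shared with Exosc6 on the same strand, a gene not analysed here. The promoter window of Aars holds both motifs shown above. Tarsl2, given beside Tars, was the third of these genes. For Aars, Qars and Tarsl2 the sign of the difference changes with the scaling or with the library left out.

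Genes that fell were found on both sides of the usual divisions of the enzymes. Synthetases belong to 2 unrelated structural classes that attach the amino acid through different folds. Of 9 cytosolic genes of class I 5 fell (median log2 fold change -0.31), and of 11 of class II 3 fell (median -0.26), while Eprs holds a domain of each class. Of 12 cytosolic enzyme genes listed as responsive to ATF4, 7 fell, with a median of -0.33, and of the 9 others 2 fell, Farsb and Vars, with a median of -0.25. Over all genes tested 3.43% fell, and differences between these subsets were not tested.

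Among the knockout libraries, the order was shared by many of the cytosolic genes. Phf6 KO 3 was the lowest knockout library for 16 of 21 cytosolic genes and for all 3 scaffold genes, and Phf6 KO 2 the highest for 14 of 21. In wild type no library held such a place: Phf6 WT 1, 2 and 3 were the highest for 8, 10 and 3 of the 21 and the lowest for 4, 9 and 8. For the 17 mitochondrial genes Phf6 KO 2 was the lowest knockout library for 9 and Phf6 KO 3 the highest for 8. The order was not counted over all genes, so it is not shown to be particular to the cytosolic genes. Averaged over the 21 genes, log2 values relative to the wild-type mean were 0.03, -0.02 and -0.01 in Phf6 WT 1 to 3 and -0.27, -0.23 and -0.35 in Phf6 KO 1 to 3. The summed normalised reads of the 21 genes were 171547, 165888 and 169452 in wild type and 142774, 144083 and 132729 in knockout, a difference of -17.2% between the means. Expressed as a share of all reads assigned to genes, the sums were 3360, 3220 and 3412 CPM in wild type and 2971, 2945 and 2844 CPM in knockout, a difference of -12.3%. On both scales every knockout library lay below every wild-type library.

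Mitochondrial enzyme genes had differences in both directions. None of the 17 was called by limma or edgeR, DESeq2 called Rars2 lower, and 4 had an unadjusted p under 0.05 in limma, all lower, where 12.5% of all genes were lower by that rule. The median log2 fold change of the 17 was -0.11, 12 values were negative and 5 positive. Rars2, for arginine, had 1829, 1681 and 1770 normalised reads in Phf6 WT 1 to 3 and 1380, 1401 and 1477 in Phf6 KO 1 to 3 (-0.31 ± 0.09 SE, limma adjusted p = 0.0550). It was also called with genes filtered at 1 CPM in at least 3 libraries, where 4.44% of genes fell. Yars2, for tyrosine, had 1518, 1667 and 1479 in wild type and 1231, 1344 and 1198 in knockout (-0.31 ± 0.10, limma adjusted p = 0.0778). In both genes the lowest wild-type library stood above the highest knockout library. Cars2, for cysteine, had 1364, 1205 and 1293 in wild type and 1073, 1053 and 1085 in knockout (-0.26 ± 0.09, limma adjusted p = 0.111). Nars2, for asparagine, had 876.9, 810.8 and 885.7 in wild type and 661.4, 776.9 and 696.0 in knockout (-0.27 ± 0.11, limma adjusted p = 0.158). For these 4 genes and Ears2 the groups did not overlap, and the other 12 had overlapping groups. Over all genes 16.2% were lower without overlap, and 22.9% of genes at least as abundant as the lowest member, so 5 of 17 was near the background.

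Several mitochondrial genes had values above those of wild type, none past the test. Lars2, the leucine enzyme, had 27921, 29061 and 31861 normalised reads in wild type and 33421, 36982 and 31576 in knockout (0.20 ± 0.09, limma adjusted p = 0.207), with Phf6 KO 3 below Phf6 WT 3. Pars2, for proline, had 582.6, 523.4 and 659.8 in wild type and 754.2, 611.8 and 690.0 in knockout (0.22 ± 0.13, limma adjusted p = 0.340). Fars2, Hars2 and Aars2 had log2 fold changes of 0.10, 0.07 and 0.03. The others ranged from -0.18 (Wars2) to -0.01 (Iars2), with Tars2, Ears2, Mars2, Vars2 and Sars2 among those between. Averaged over the 17 genes, log2 values relative to the wild-type mean were -0.07, -0.10 and -0.05 in Phf6 KO 1 to 3 and -0.003, -0.03 and 0.04 in Phf6 WT 1 to 3. The direction for Iars2, Sars2, Vars2 and Aars2 changes with the scaling, the tool or the library left out.

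**Figure D2:**
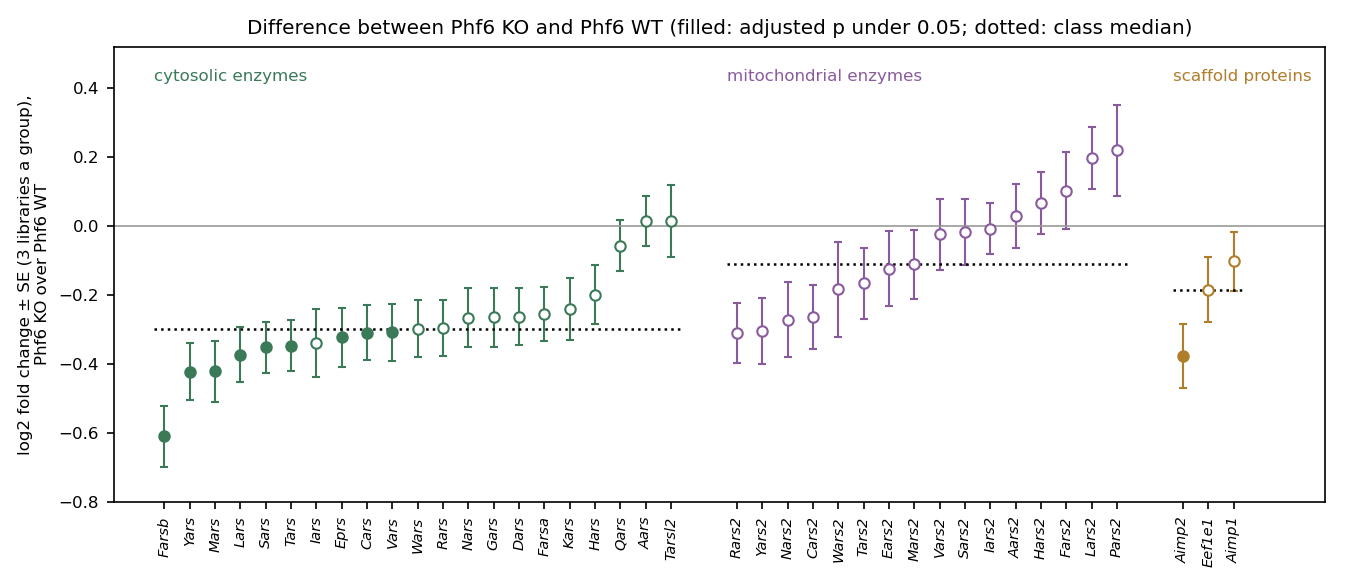
The y axis gives the log2 fold change of Phf6 KO over Phf6 WT with its SE (3 libraries a group) for 21 cytosolic, 16 mitochondrial and 3 scaffold genes, with filled points for genes that passed the test and a dotted line at the median of each whole class. The 9 filled cytosolic points lie between -0.61 (Farsb) and -0.31 (Vars), no mitochondrial point is filled, and Aimp2 is the filled scaffold gene.

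A ratio of the cytosolic to the mitochondrial enzyme for the same amino acid, taken within a library, does not depend on how libraries are scaled. Of 17 such pairs (Eprs set against both Ears2 and Pars2, and Farsa against Fars2) 15 had a lower mean ratio in knockout and 2, Nars/Nars2 and Rars/Rars2, a higher one. In 9 pairs all knockout ratios lay below all wild-type ratios and in none above. When every tested gene with reads in each library was set against each of the 17 mitochondrial genes, 9.57% of ratios were lower without overlap. That share includes genes less abundant than any member, and none was computed for genes as abundant as the members. The ratio of Lars to Lars2 had log2 values of -2.24, -2.49 and -2.54 in Phf6 WT 1 to 3 and -2.95, -3.11 and -2.93 in Phf6 KO 1 to 3, a difference of -0.57. For Eprs to Pars2 the difference was -0.54, for Farsa to Fars2 -0.36, for Sars to Sars2 -0.34 and for Iars to Iars2 -0.33. Mars to Mars2, Vars to Vars2, Hars to Hars2 and Yars to Yars2 were the other pairs without overlap (-0.31, -0.28, -0.27 and -0.12). The pairs share libraries with each other, and those with Ears2 and Pars2 also share Eprs. The difference between the cytosolic and mitochondrial classes as a whole was not tested. As the mean of 21 cytosolic minus the mean of 17 mitochondrial log2 values, relative to wild type, it was 0.03, 0.01 and -0.04 in Phf6 WT 1 to 3 and -0.20, -0.12 and -0.29 in Phf6 KO 1 to 3.

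**Figure D3:**
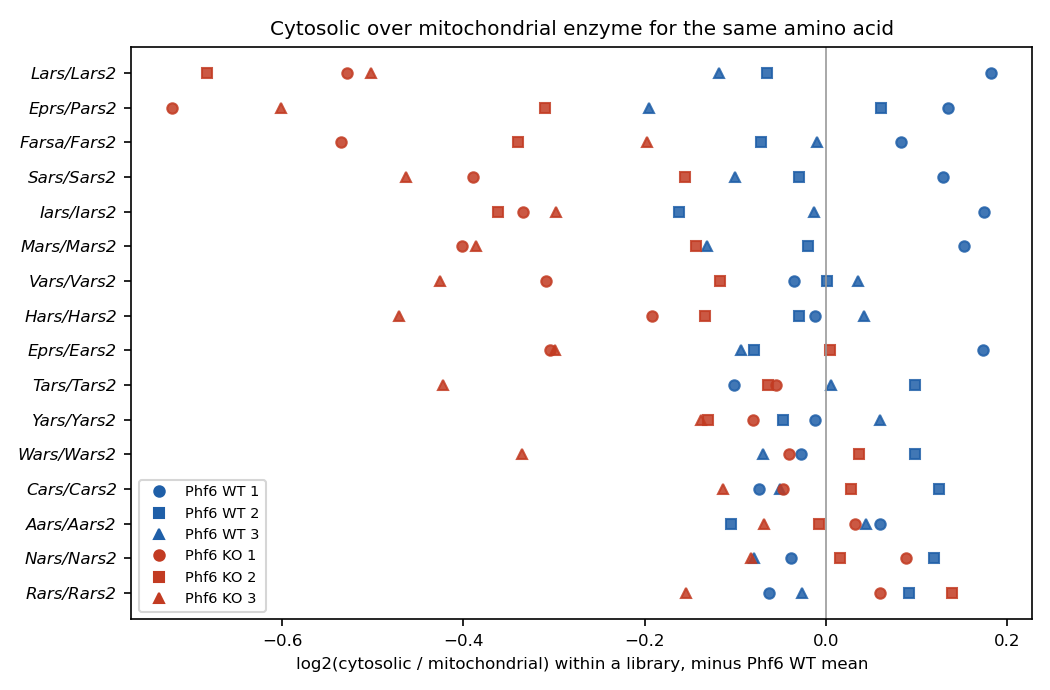
Each row is a cytosolic enzyme gene over the mitochondrial enzyme gene for the same amino acid, and the x axis gives log2 of their ratio within a library minus the mean of Phf6 WT, with colours for the groups and shapes for the library numbers. Red lies wholly to the left of blue in 9 of the 16 rows shown, furthest for Lars/Lars2 (-0.57), and the rows from Rars/Rars2 (0.01) to Aars/Aars2 (-0.01) at the bottom are mixed.

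Genes for the histidine enzymes lie head to head. Hars (minus strand) and Hars2 (plus strand) overlap at their starts on chromosome 18, sharing 195 exon bases. Hars had a log2 fold change of -0.20 ± 0.09 and Hars2 of 0.07 ± 0.09, and the log2 ratio of Hars to Hars2 was 0.76, 0.74 and 0.81 in Phf6 WT 1 to 3 and 0.58, 0.64 and 0.30 in Phf6 KO 1 to 3. Iars2 (minus strand) and Eprs (plus strand) lie 33.6 kb apart on chromosome 1 and differed by -0.01 and -0.32. Aars and Kars lie 935.8 kb apart on chromosome 8 (0.01 and -0.24).

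In RPKM, reads per kilobase of annotated exon scaled to the library total, cytosolic enzyme transcripts were mostly more abundant than mitochondrial ones. The median level was 31.4 in Phf6 WT and 24.8 in Phf6 KO over the 21 cytosolic genes, and 8.67 and 8.34 over the 17 mitochondrial genes. Vars was highest among all members in both groups (92.1 ± 6.62 in wild type and 78.8 ± 4.95 in knockout, SD, n = 3 each), followed by Gars (71.7 and 63.3) and Kars (66.7 and 60.0), the enzymes that serve both compartments, in wild type and over all libraries. Lars2 was the fourth over all libraries, at 52.7 ± 4.55 in wild type, where it did not differ from Dars (52.9 ± 1.21) beyond the spread, and 64.0 ± 3.74 in knockout, where its mean stood above those of Gars and Kars within the spread of the libraries. The next mitochondrial gene was Iars2 at 19.5 and 20.5, and 22.9% of its exon bases are shared with Rab3gap2 on the opposite strand. The lowest were Wars2 (1.11 and 1.03), Nars2 (2.43 and 2.13) and Tarsl2 (2.23 and 2.38). Levels per length divide by the library total and by the summed length of all annotated exons, so a gene with exons that are unused in these cells reads low. Lars2 held a large part of the reads of its class: the 17 mitochondrial genes summed to 63667 to 68382 normalised reads in wild type and 66800 to 69961 in knockout, and without Lars2 to 34991 to 36522 and 32980 to 35224. As a share of all reads, the 17 genes summed to 1243 to 1377 CPM in wild type and 1406 to 1431 CPM in knockout, every knockout library above every wild-type library. Without Lars2 the groups overlapped on that scale too, at 679.2 to 735.4 and 674.0 to 754.6 CPM. Scaling by library totals alone also moved the median log2 fold change of all genes tested, to 0.069 from -0.013 as deposited.

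**Figure D4:**
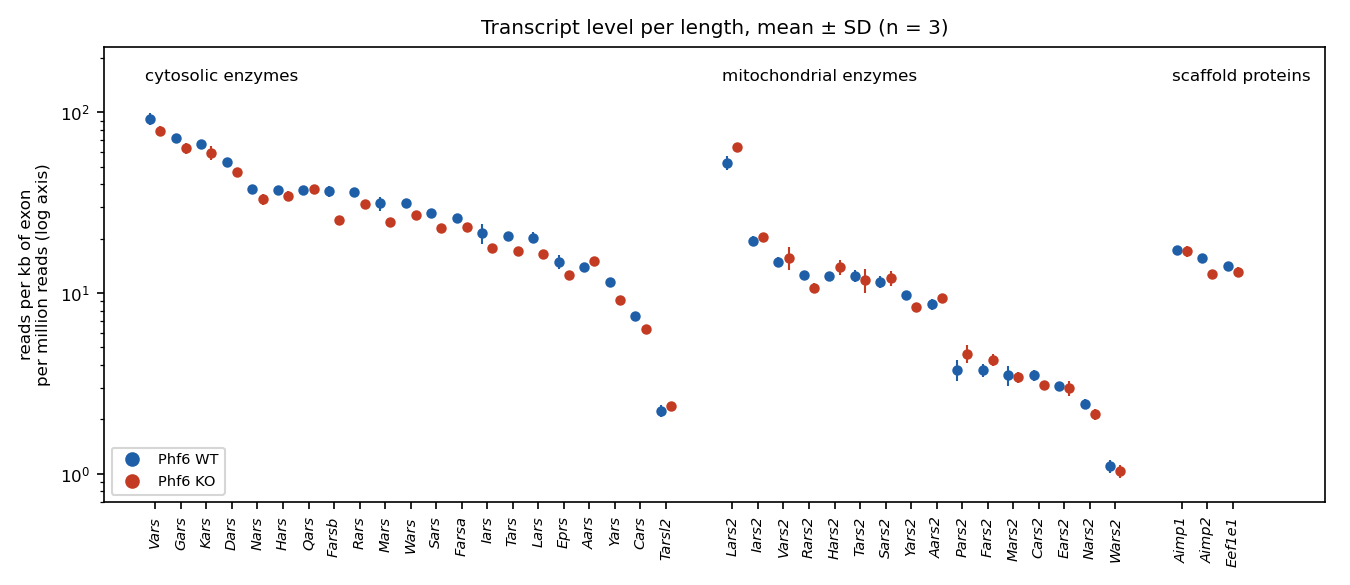
The y axis (log scale) gives RPKM, as mean with SD over the 3 libraries of Phf6 WT (blue) and Phf6 KO (red), with genes in order of the wild-type level within each class. Cytosolic genes run from 92.1 (Vars) to 2.23 (Tarsl2) in wild type, and Lars2, at 52.7, stands above the other mitochondrial genes shown.

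Genes that handle the charged tRNA were described from a list of 24, all tested. Of these 6 fell, against 3.43% of all genes, and the list had a median of -0.14 on the log2 scale. limma gave 10 of them an unadjusted p under 0.05, all lower, against 12.5% of all genes. Tufm, the mitochondrial elongation factor that carries charged tRNA to the ribosome, fell by 0.44 on the log2 scale, from 6035, 5661 and 5537 in Phf6 WT to 4164, 4660 and 3878 in Phf6 KO. The cytosolic elongation factor 1 subunit genes Eef1g (-0.37) and Eef1d (-0.33) fell, and Eef1a1, the factor that binds charged tRNA, had -0.17 and did not pass (adjusted p = 0.240). Xpot, which exports tRNA from the nucleus, fell from 7021, 6021 and 6307 to 5084, 5150 and 4675 (-0.37 ± 0.09, limma adjusted p = 0.0279). Eefsec, the elongation factor for selenocysteine, fell too (-0.35, limma adjusted p = 0.0476). The mitochondrial amidotransferase genes Qrsl1, Gatb and Gatc, which make glutaminyl-tRNA in place of a mitochondrial glutamine enzyme, had 0.18, -0.19 and -0.11 and did not pass.

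In the pathway that senses uncharged tRNA, 6 of 11 tested genes had an unadjusted p under 0.05 in limma, 4 lower and 2 higher, where 12.5% of all genes were lower and 12.7% higher. After adjustment 1 fell (3.43% of all genes), Eif2b4, a subunit of the guanine exchange factor eIF2B (3052, 3308 and 2986 reads in wild type and 2514, 2409 and 2380 in knockout, -0.35 ± 0.08 SE, limma adjusted p = 0.0272). Eif2ak4, which encodes GCN2, had a log2 fold change of 0.21 (adjusted p = 0.158), its activator gene Gcn1l1 -0.33 (adjusted p = 0.051) and Impact, an inhibitor of that activation, 0.51 (adjusted p = 0.0581). Other targets of ATF4 went both ways: of 28 tested, 9 fell and 2 rose, where 3.43% of all genes fell and 5.32% rose. Atf4 itself had 11723, 20312 and 10088 reads in wild type and 10297, 18602 and 10729 in knockout, with overlapping groups (-0.08 ± 0.37, limma adjusted p = 0.924). Of serine and proline synthesis genes, Psat1 (-0.46), Phgdh (-0.34) and Aldh18a1 (-0.63) fell, while Psph (-0.02) and Pycr1 (0.20) did not pass. The folate enzyme genes Shmt2 (-0.52) and Mthfd2 (-0.53) fell, as did Eif4ebp1 (-0.65), Cebpg (-0.57), Atf5 (-0.35) and Xpot. Slc6a9, a glycine transporter gene, rose from 122.1, 135.3 and 101.2 to 163.8, 270.0 and 242.7 normalised reads (0.88 ± 0.22, limma adjusted p = 0.0374). Asns, which makes the asparagine that Nars charges, was scarce, at 26.0, 30.6 and 17.2 reads in wild type and 72.0, 59.2 and 77.2 in knockout, and rose (1.45 ± 0.27, limma adjusted p = 0.0130), while Nars had a mean of 8289 ± 208 and 6912 ± 627 reads (SD, n = 3 each) and did not pass (-0.27 ± 0.09, limma adjusted p = 0.0859).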

How the data were processed

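STAR 2.6.0a, bcl2fastq 1.8.4, DESeq2 and featureCounts are named, with the build GRCm38, in the submitters' processing notes. The sources used here give no gene annotation, strand setting or handling of multiply mapped reads. The deposited signal is a normalised read count: the authors divided gene counts by 1 factor per library, as read from the values, which were whole multiples of 1 step for 100% of genes within a tolerance of 0.01. In Phf6 WT 1 and Phf6 KO 3 the step was close to 1, and with a step of exactly 1 only 25.0% and 8.9% of their values above 0 would be whole. Of 23314 rows, 8 without an identifier were left out (at most 0.00106% of reads). Replicate libraries differed by 11.9 to 51.7 in chi-square per degree of freedom, so none was a repeat of another.

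Groups were compared on log2(value + 2) in R 4.3.3 by limma 3.58.1 (trend and robust empirical Bayes) for genes at 10 or more in at least 3 libraries, with group as the only term. Fold changes on this scale understate changes of low genes. edgeR 4.0.16 and DESeq2 1.42.0 were run on the recovered reads, and the procedure was tested on simulated counts. Coordinates and exon lengths are from GENCODE M21 (GRCm38), promoters from RefSeq. Members, lists and tests were chosen with earlier results of these data known. Values in every library are given for members that passed and otherwise for the smallest p until 4 are named in each class. From other lists up to 4 genes of smallest p and any called gene are named. Eif2ak4, Psph and Pycr1 are named outside this rule. Values of Farsa, Qars, Aars, Iars, Tarsl2, Lars2, Pars2, Eef1a1, Qrsl1, Gatb, Gatc, Atf4 and Myc were added after being seen. Same-numbered samples of the groups did not all deviate together. Of the genes counted, 1 member and 1 gene of another list are not reported by name here or in the figures.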

Additional observations from a re-analysis of the deposited data

How the results depend on the processing

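Alternatives numbered 17 for each gene. The count of 9 cytosolic genes that fell stayed within 1.5 times under TMM and upper-quartile scaling, other filters and pseudocounts. So it did with edgeR, DESeq2 and the set without both libraries numbered 2. Gars and Kars were not among the 9, so leaving them out could not change the count. It was 4 with library totals only, and 1 to 9 when leaving out 1 library. Mitochondrial falls, 0 at first, were 1 with the filter of 1 CPM and with DESeq2. Over all genes, 618 falls became 300 (beside 1213 rises) with library totals only, 974 without both libraries numbered 2 and 73 to 786 when leaving out 1 library, and 957 rises became 180 to 1155 in the latter. Leaving out a library leaves fewer samples, and the cause of the other changes was not tested. With the replicate number as a block, 14 cytosolic and 2 mitochondrial genes fell, and 1109 genes fell and 1459 rose in all. Same-numbered samples had correlations of 0.01, 0.50 and 0.14 between their deviations from the group means. Phf6 KO 1 correlated best with Phf6 WT 3 (0.38). With so few samples a group, these values cannot show whether the numbers pair the samples. Signs changed, with no call, for genes near 0. Qars was 0.027 with library totals. With upper-quartile scaling, library totals and edgeR, Iars2 was 0.028, 0.076 and 0.011, Sars2 0.018, 0.067 and 0.003, and Vars2 0.012, 0.060 and 0.003. Iars2 was 0.006 with DESeq2. Without both libraries numbered 2, Tarsl2 was -0.017, Sars2 0.070 and Vars2 0.050. Leaving out 1 library gave -0.004 to 0.033 for Aars, -0.031 to 0.066 for Tarsl2, -0.019 to 0.094 for Aars2, -0.029 to 0.027 for Iars2, -0.074 to 0.045 for Sars2 and -0.087 to 0.085 for Vars2. The fold change of Phf6 kept its direction and call throughout. Genes with similar fold changes on either side of the threshold are not shown to differ.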

Other observations

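Myc encodes a factor that binds the E-box motif, and whether it binds the matches shown for Farsb, Iars and Aars was not tested. Myc was chosen after its values were seen. Its normalised read counts were 12128, 7029 and 15791 in Phf6 WT 1 to 3 and 13802, 6196 and 12003 in Phf6 KO 1 to 3, or -0.13 on the log2 scale (SE 0.46, adjusted p = 0.893 in limma). The libraries numbered 2 were the lowest of both groups, and the groups overlapped. The genes with matches shown did not share an order in these libraries. Farsb had 4562 reads in Phf6 WT 2, the lowest of wild type, and 3419 in Phf6 KO 2, the highest of the knockout. Iars had 4940 in Phf6 WT 2 and 4383 in Phf6 KO 2, the lowest of each group. Aars had 6695 and 6818 there, the highest of each group. A relation of these genes to Myc was not tested.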
